A study of Rattus norvegicus with 24 samples.

Results

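The mammalian mitochondrion keeps a small circular chromosome of its own, and its protein genes encode core subunits of the respiratory chain and of ATP synthase. Described here are 10 of these genes, among 32754 gene rows in the deposited table of rat cortical cultures. For complex I they are Mt-nd1 (ENSRNOG00000030644), Mt-nd2 (ENSRNOG00000031033), Mt-nd3 (ENSRNOG00000033615), Mt-nd4 (ENSRNOG00000029707) and Mt-nd5 (ENSRNOG00000029971). For complex III there is Mt-cyb (ENSRNOG00000031766), for complex IV Mt-co1 (ENSRNOG00000034234), Mt-co2 (ENSRNOG00000030371) and Mt-co3 (ENSRNOG00000030700), and for ATP synthase Mt-atp6 (ENSRNOG00000031979). They were picked by Ensembl gene ID, with no threshold on a measured value, and all 10 were present and passed the filter on low counts. Complex I passes electrons from NADH into the chain, complex III hands them to cytochrome c, complex IV gives them to oxygen, and ATP synthase uses the resulting proton gradient to make ATP. All 10 are transcribed from the same strand of the mitochondrial chromosome as parts of long precursor RNAs that are later cut into single messages, by a polymerase and factors that the nucleus encodes. Neurons draw most of their ATP from this pathway, and glutamate exposure is known to load neuronal mitochondria with calcium.

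The cells were rat cortical cells, grown in plates for 8 days. The medium was then exchanged for medium with 250 μM glutamate, an excitatory neurotransmitter, or for fresh growth medium, and the wells were imaged for 4 h. Cultures carried IS141, AH609 or AH236, agents known here only by code name, or DMSO, the solvent control. Each of the 8 combinations of treatment and medium had 3 libraries, 24 in all. The strain and age of the animals, the doses and timing of the agents, and the time of RNA extraction are not given in the labels. The 3 libraries of a group are not said to come from different cultures. Their p-values therefore measure the spread among libraries only, some of which may be technical. The label of cortical cells could not be checked against marker genes, because apart from the 10 genes no ID could be paired with a name. These are bulk cultures, so fewer cells of a type and less RNA per cell cannot be told apart.

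Libraries held between 22509400 and 35496447 counts. The 10 genes together took 1.45%, 1.55% and 1.58% of all counts with IS141 in glutamate, against 0.881%, 1.11% and 1.06% with IS141 in medium. With AH609 they took 1.31%, 1.45% and 1.51% in glutamate, against 0.884%, 0.866% and 1.13% in medium. With AH236 the shares were 1.11%, 1.17% and 1.19% in glutamate, against 0.939%, 1.12% and 0.874% in medium. In DMSO cultures they were 1.33%, 1.21% and 1.47% in glutamate, against 0.845%, 0.901% and 0.969% in medium. The libraries of both media were thus apart in IS141, AH609 and DMSO cultures and overlapped in AH236 cultures. A share of the library falls when other genes rise, so the levels below are counts scaled to a common library size (CPM) after TMM scaling, a trimmed mean that sets the bulk of genes equal between libraries. One library, DMSO replicate 1 in medium, stood apart from the 23 others over all genes, with a score of -48.0 on the second principal component against a range of -12.8 to 19.7. Some counts of called genes and medians that use the DMSO libraries in medium are also given without it. Counts of genes whose libraries do not overlap, and the shares and ratios among the 10 genes, include it.

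**Figure D1:**
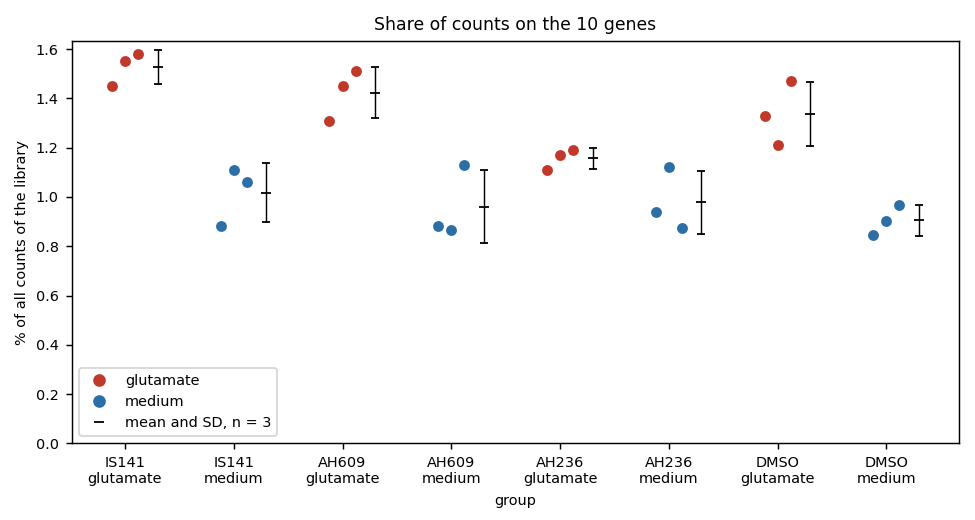
Share of all counts of a library that fell on the 10 mitochondrially encoded genes (percent, vertical axis) in each of the 8 groups; points are libraries and bars the mean and SD of 3. IS141 glutamate libraries reach 1.58%, and AH236 glutamate libraries, at 1.11% to 1.19%, overlap with the AH236 medium libraries.

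The first comparison asked how glutamate exposure changed these messages. Over all 4 treatments, all 10 genes rose in glutamate relative to medium, with log2 fold changes from 0.29 for Mt-nd3 to 0.83 for Mt-nd2 and a median of 0.64 (edgeR quasi-likelihood test, adjusted p between 1.93e-11 and 0.00553). The changes were moderate, between 1.22-fold and 1.78-fold. The background is wide. Of the 15908 genes tested, 38.8% were called higher in the same comparison and 6300 genes lower. The median over all genes was 0.00. TMM takes most genes as unchanged, a premise that is uncertain with so many called. Its factors ran from 0.898 to 0.973 in glutamate and from 1.03 to 1.1 in medium libraries, which raised glutamate levels relative to medium. The 10 genes lay between the 71.4th and the 89.2th percentile of log2 fold changes of all genes tested. Relative to library totals alone, which move the median of all genes to -0.19, the median of the 10 was 0.45 and 9 were called higher, while Mt-nd3 had a log2 fold change of 0.10 (edgeR adjusted p = 0.31; 0.000843 to 0.31 over the alternatives). Of all genes tested, library totals called 4073 higher and 8586 lower.

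**Figure D2:**
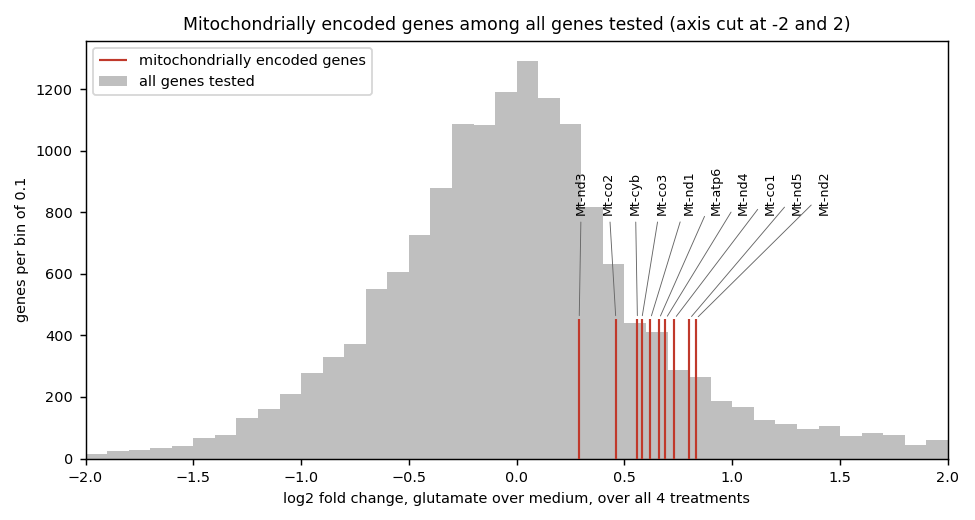
Numbers of genes per bin of log2 fold change in glutamate over medium across all 4 treatments (grey, all genes tested, axis limited to -2 to 2), with the 10 mitochondrially encoded genes as red lines. The lines run from 0.29 for Mt-nd3 to 0.83 for Mt-nd2, right of the median of all genes at 0.00 and left of the largest rises.

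Among the complex I subunits, Mt-nd5, which encodes one of the subunits that form the proton-pumping arm, gave a clear picture. It had 1064, 1096 and 1144 CPM with IS141 in glutamate, against 479.5, 644 and 628 CPM with IS141 in medium. It had 816, 856 and 884 CPM with AH236 in glutamate, against 578, 681 and 525 CPM with AH236 in medium. In DMSO cultures it had 916, 856 and 1066 CPM in glutamate, against 445, 501 and 542 CPM in medium. Every glutamate library, with AH609 at 915, 1069 and 1089 CPM, lay above every medium library, with AH609 at 516, 505 and 687 CPM. Its log2 fold change was 0.92 ± 0.13 (SE) with IS141, 0.85 ± 0.13 with AH609, 0.52 ± 0.13 with AH236 and 0.93 ± 0.13 in DMSO (edgeR adjusted p = 1.05e-05, 2.37e-05, 0.00242 and 8.74e-06 in that order). With library totals the AH236 value was 0.32 and missed the threshold (adjusted p = 0.0559).

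Mt-nd2, another subunit of the membrane arm of complex I, had the highest log2 fold change of the 10 over all treatments, 0.83 ± 0.08 (SE). It averaged 457 ± 24.7 CPM with IS141 in glutamate and 248 ± 27.5 CPM in medium, and 353 ± 29.3 CPM with AH236 in glutamate and 233 ± 48.2 CPM in medium (SD, n = 3). In DMSO cultures it averaged 395 ± 49.1 CPM in glutamate and 206 ± 30.7 CPM in medium (SD, n = 3). All 12 glutamate libraries, from 327 to 485 CPM, were above all 12 medium libraries, from 177 to 293 CPM, but with library totals they overlapped (298.7 CPM as the lowest glutamate and 309.8 CPM as the highest medium library). Mt-nd1, which sits where the membrane arm meets the peripheral arm, rose by a log2 value of 0.62 ± 0.07 (SE; edgeR adjusted p = 5.85e-08), and here the lowest glutamate library, AH236 replicate 2 at 299 CPM, fell just below the highest medium library, AH609 replicate 3 at 303 CPM.

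Mt-nd4, also a subunit of the proton-pumping arm, had the widest range of values between treatments. In DMSO cultures it had 442, 369.7 and 505 CPM in glutamate, against 196, 185 and 243 CPM in medium, 1.08 ± 0.22 (SE) on the log2 scale or 2.11-fold (edgeR adjusted p = 0.000376), the largest of all single-treatment values of the 10 genes. With AH236 it had 276, 286 and 332 CPM in glutamate, against 233, 289.5 and 209.9 CPM in medium, 0.29 ± 0.21 (SE) on the log2 scale (edgeR adjusted p = 0.266). Both groups overlapped with AH236, while those of DMSO cultures were apart. With AH609 it had 325, 399 and 489.6 CPM in glutamate, against 218, 226 and 365 CPM in medium, and the groups overlapped through AH609 replicate 3 in medium. That rise, 0.59 ± 0.21 (SE) on the log2 scale (edgeR adjusted p = 0.026), was lost without AH609 glutamate replicate 3, AH609 medium replicate 1 or AH609 medium replicate 2 (0.42, 0.45 and 0.47, adjusted p = 0.134, 0.118 and 0.11), in a fit of the AH609 groups alone (adjusted p = 0.148), without a filter (0.0506) and with library totals (0.111), with a range over all alternatives of 0.00204 to 0.148.

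Mt-nd3, a small subunit at the junction of the arms of complex I, changed least. It had 67.0, 63.1 and 66.7 CPM with IS141 in glutamate, against 45.4, 58.3 and 47.0 CPM with IS141 in medium. In DMSO cultures it had 48.0, 46.4 and 63.3 CPM in glutamate, against 32.1, 44.1 and 50.9 CPM in medium, and the groups overlapped. With AH236 it had 45.0, 45.2 and 47.3 CPM in glutamate, against 41.1, 52.9 and 38.6 CPM in medium, with the glutamate libraries inside the range of the medium libraries. No single treatment passed the threshold, with log2 fold changes of 0.39 ± 0.17 (SE) for IS141, 0.40 ± 0.17 for AH609, 0.05 ± 0.17 for AH236 and 0.31 ± 0.17 for DMSO (edgeR adjusted p = 0.0603, 0.0552, 0.812 and 0.13 in that order). The IS141 and AH609 values lay close to the threshold, and both passed it without DMSO replicate 1 in medium, with adjusted p = 0.0393 and 0.0357 (0.00161 to 0.361 and 0.0185 to 0.277 over the alternatives). The DMSO value passed only without DMSO medium replicate 3, at 0.46 (adjusted p = 0.0414), and was 0.14 without DMSO medium replicate 1.

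Mt-cyb, the cytochrome b of complex III and the only subunit of that complex that the mitochondrion encodes, rose in every treatment, though with AH236 not under every scaling. It had 1419.6, 1493 and 1592 CPM with IS141 in glutamate, against 852, 1026 and 1019 CPM in medium. With AH236 it had 1229, 1168 and 1299.8 CPM in glutamate, against 988, 1070.4 and 935 CPM in medium. In DMSO cultures it had 1462, 1360.5 and 1509.7 CPM in glutamate, against 843, 893 and 941 CPM in medium. All 12 glutamate libraries, down to 1168 CPM, were above all 12 medium libraries, up to 1147 CPM, but with library totals they overlapped, down to 1068 CPM in glutamate and up to 1211 CPM in medium. The log2 fold change was 0.64 ± 0.09 (SE) with IS141, 0.61 ± 0.09 with AH609, 0.30 ± 0.08 with AH236 and 0.69 ± 0.09 in DMSO (edgeR adjusted p = 1.34e-06, 2.37e-06, 0.00378 and 3.93e-07 in that order). With library totals the AH236 value was 0.10 and was not called (adjusted p = 0.342).

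Of the complex IV genes, Mt-co1 encodes the subunit that holds the site where oxygen is reduced. It had 8252, 8690.1 and 8657 CPM with IS141 in glutamate, against 4087, 5218 and 4965 CPM with IS141 in medium. With AH609 it had 7355, 8185 and 8264 CPM in glutamate, against 4263, 4122 and 5285 CPM in medium. Mt-co1 reached its lowest glutamate levels with AH236, at 6506, 6977 and 7009 CPM, against 4620.4, 5265 and 4391 CPM with AH236 in medium, and in DMSO cultures it averaged 7237 ± 540 CPM in glutamate and 4233 ± 240 CPM in medium (SD, n = 3). The glutamate and medium libraries did not overlap in any treatment, and the log2 fold change was 0.84 ± 0.10 (SE) with IS141, 0.80 ± 0.10 with AH609, 0.52 ± 0.10 with AH236 and 0.77 ± 0.10 in DMSO (edgeR adjusted p = 2.85e-07, 5.21e-07, 8.97e-05 and 8.87e-07 in that order).

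Mt-co2 encodes the subunit that takes electrons from cytochrome c. Its log2 fold change was 0.57 ± 0.09 (SE) with IS141, 0.53 ± 0.09 with AH609, 0.22 ± 0.09 with AH236 and 0.52 ± 0.09 in DMSO (edgeR adjusted p = 1.79e-05, 4.25e-05, 0.0456 and 4.53e-05 in that order). With AH236 it had 672, 727 and 752 CPM in glutamate, against 616, 676 and 558 CPM in medium, and the groups overlapped by a single library each. The AH236 call lay at the threshold, and 16 of its 31 alternatives ended it, 14 of them with 1 library left out (edgeR adjusted p between 0.00921 and 0.91 over the alternatives). Without DMSO medium replicate 1 the adjusted p was 0.0602. Mt-co3, the third core subunit of complex IV, averaged 2140 ± 109 CPM with IS141 in glutamate and 1330 ± 177 CPM in medium, and 1796 ± 202 CPM in DMSO cultures in glutamate and 1161 ± 144 CPM in medium (SD, n = 3). Over all treatments it rose by 0.58 ± 0.06 (SE) on the log2 scale (edgeR adjusted p = 1.17e-07).

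Mt-atp6 encodes the ATP synthase subunit through which protons pass. It averaged 596 ± 39.0 CPM with IS141 in glutamate and 358 ± 30.0 CPM in medium, 584 ± 56.2 CPM with AH609 in glutamate and 340 ± 71.3 CPM in medium, and 523 ± 38.3 CPM in DMSO cultures in glutamate and 314 ± 33.9 CPM in medium (SD, n = 3). With AH236 it averaged 477 ± 43.5 CPM in glutamate and 362 ± 50.2 CPM in medium (SD, n = 3). The 12 glutamate libraries, from 437 to 641 CPM, lay above the 12 medium libraries, from 275 to 421 CPM, but with library totals they overlapped (399.6 CPM as the lowest glutamate and 444 CPM as the highest medium library). In all, after TMM scaling 6 of the 10 genes had every glutamate library above every medium library, namely Mt-nd2, Mt-nd5, Mt-cyb, Mt-co1, Mt-co3 and Mt-atp6, and 16.7% of all genes tested did so. With library totals, a check added after the data were seen, 2 did so, Mt-nd5 and Mt-co1, and 10.1% of all genes.

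**Figure D3:**
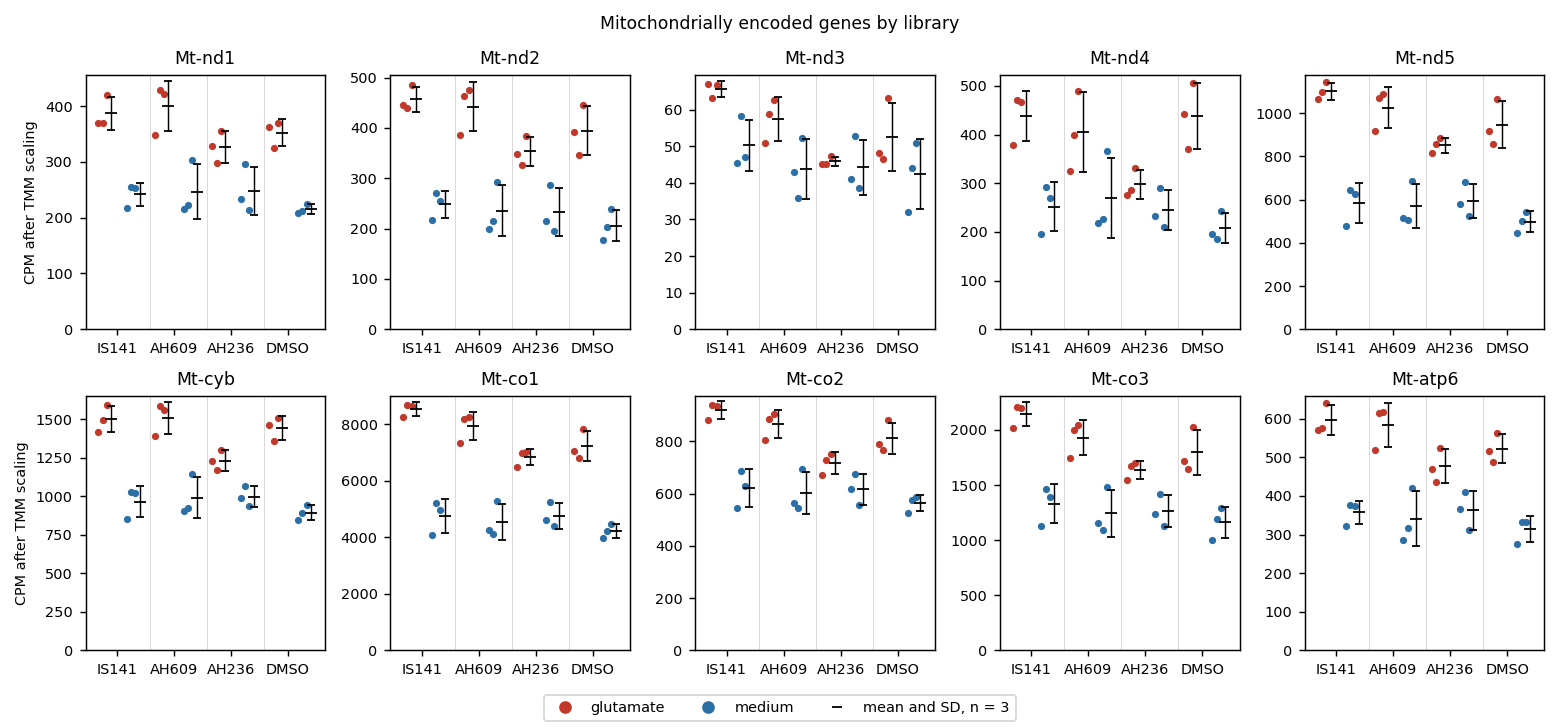
Level of each of the 10 genes (CPM after TMM scaling, vertical axes from 0, 1 panel a gene) in each library, by treatment, with glutamate in red and medium in blue; black bars are the mean and SD of 3 libraries. Red points lie above blue points in most panels, Mt-nd3 overlaps in AH609, AH236 and DMSO cultures, and the AH236 red points are the lowest of the red points on average in every panel.

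Within single treatments, 9 of the 10 genes were called higher in glutamate with IS141, 9 with AH609, 8 with AH236 and 9 in DMSO cultures, and none was called lower. Of all genes tested, 28.9%, 30.1%, 29.5% and 28.6% were called higher in the same order. All glutamate libraries lay above all medium libraries for 10, 8, 7 and 9 of the 10 genes in that order, as they did for 32.7%, 34.1%, 33.0% and 28.0% of all genes. With library totals the 7 genes of AH236 cultures became 2, Mt-nd5 and Mt-co1, where 21.2% of all genes were apart. IS141, AH609 and DMSO cultures gave 9, 8 and 9 under that scaling, where 21.0%, 23.5% and 17.8% of all genes were apart. The median log2 fold change of the 10 was 0.71 with IS141, 0.67 with AH609, 0.39 with AH236 and 0.72 in DMSO, and with library totals it was 0.52, 0.50, 0.18 and 0.54. Without DMSO medium replicate 1 the counts called higher were 10, 10, 7 and 9, and the DMSO values ran from 0.14 to 1.03 with a median of 0.67. The AH236 count rested on single libraries and on the scaling: it was 4 without AH236 glutamate replicate 3 and 4 without AH236 medium replicate 3, and 2 with library totals, Mt-nd2 and Mt-co1. Of all genes tested, library totals called 2971 higher with AH236, against 4689 in the main fit.

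**Figure D4:**
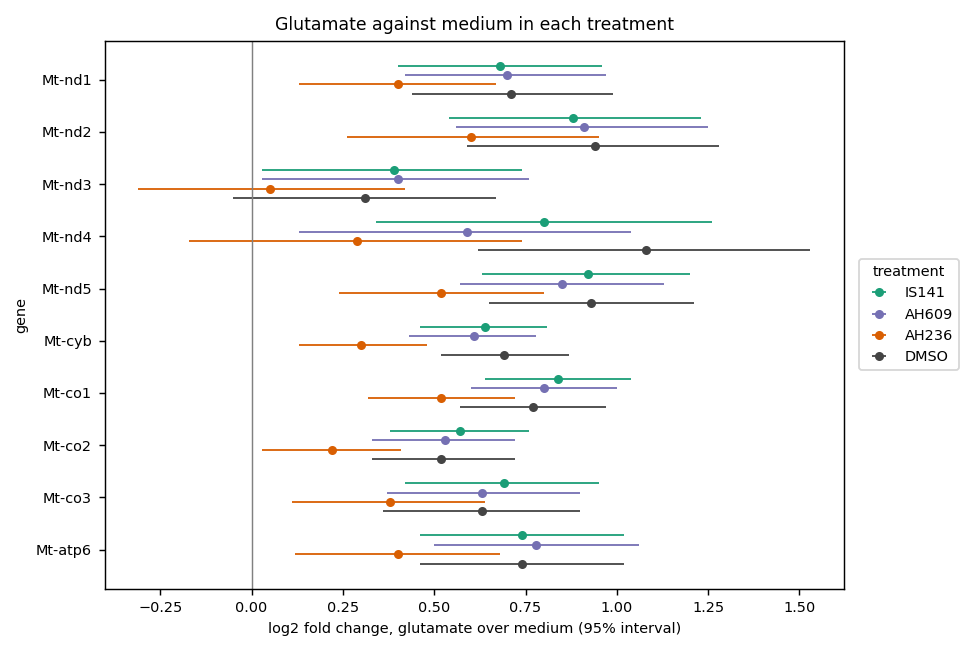
Log2 fold change of each gene in glutamate over medium (horizontal axis) within each treatment, from the edgeR fit, with 95% intervals. The AH236 estimates, from 0.05 to 0.60, are the lowest of the 4 for every gene, and most of their intervals overlap those of the other treatments.

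The next comparison asked whether an agent altered the glutamate response. With AH236 the glutamate effect was smaller than in DMSO cultures for all 10 genes, by -0.25 to -0.79 on the log2 scale with a median of -0.32, but none passed the threshold (smallest edgeR adjusted p = 0.106), and 4 had an unadjusted p under 0.05. In this comparison 1.55% of all genes were called at an adjusted p under 0.05. No share of all genes at an unadjusted p under 0.05 is given, here or below. Counts at that limit therefore have no background to be read against. The median was -0.20 without AH236 medium replicate 2, -0.42 without AH236 medium replicate 3 and -0.26 without DMSO medium replicate 1. Mt-cyb had a difference of -0.39 ± 0.12 (SE; 95% interval -0.64 to -0.14, edgeR adjusted p = 0.106), Mt-nd4 of -0.79 ± 0.30 (-1.43 to -0.15, adjusted p = 0.227), Mt-co2 of -0.31 ± 0.13 (-0.58 to -0.04, adjusted p = 0.267) and Mt-nd5 of -0.41 ± 0.19 (-0.81 to -0.02, adjusted p = 0.327). DESeq2 called 1 gene, Mt-cyb, with an adjusted p of 0.0398, and so did the fit without AH609 medium replicate 3 (adjusted p = 0.047; 0.0398 to 0.232 over the alternatives). The 10 genes move together from library to library, so their shared sign is not 10 separate observations. Both media entered this difference of effects. AH236 against DMSO had a median log2 fold change of -0.16 in glutamate and 0.17 in medium, with none of the 10 called in either.

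For IS141 and AH609 the glutamate effect differed from that in DMSO cultures by a median of -0.01 each over the 10 genes, and none was called (smallest edgeR adjusted p = 0.856 and 0.791, with 0.779% and 0.0251% of all genes called). At an unadjusted p under 0.05 there were 0 in each, and DESeq2 called 0. Without DMSO medium replicate 1 the medians were 0.07 and 0.06, and with any 1 library left out they lay between -0.09 and 0.07 for IS141 and between -0.09 and 0.15 for AH609. The 95% intervals of the 10 differences lay between -0.92 and 0.58 for IS141 and between -1.13 and 0.60 for AH609, so these tests do not show that the glutamate effects were alike.

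Each agent was also set against DMSO within a medium. In glutamate, AH236 cultures had the lowest mean of the 4 treatments for all 10 genes. Against DMSO the log2 fold changes lay between -0.56 and -0.08, none was called (smallest edgeR adjusted p = 0.0933), 2 had an unadjusted p under 0.05, and 10.3% of all genes were called in either direction. For Mt-nd4 the AH236 libraries at 276, 286 and 332 CPM were all below the DMSO libraries at 442, 369.7 and 505 CPM, a difference of -0.56 ± 0.21 (SE) on the log2 scale (95% interval -1.01 to -0.11, edgeR adjusted p = 0.116; 0.0383 to 0.303 over the alternatives). For Mt-cyb the AH236 libraries at 1229, 1168 and 1299.8 CPM were all below the DMSO libraries at 1462, 1360.5 and 1509.7 CPM, a difference of -0.23 ± 0.08 (SE; -0.41 to -0.05, edgeR adjusted p = 0.0933; 0.0059 to 0.265 over the alternatives). Mt-co2 was likewise apart, so that 3 of 10 genes had all AH236 libraries below all DMSO libraries, where 13.9% of all genes did. With library totals there were 6, Mt-nd3, Mt-nd4, Mt-nd5, Mt-cyb, Mt-co2 and Mt-co3, against 23.7% of all genes. The median of the 10, -0.16, was -0.07 without DMSO glutamate replicate 3. A fit of the AH236 and DMSO glutamate groups alone called 3 genes lower, library totals called 1, and so did the fit without AH609 medium replicate 3. Of all genes tested, library totals called 1435 lower in this comparison, against 652 in the main fit.

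With IS141 in glutamate the 10 genes had log2 fold changes against DMSO between -0.00 and 0.32 with a median of 0.20, and none was called (smallest edgeR adjusted p = 0.134; 8.46% of all genes called). One gene, Mt-co1, had an unadjusted p under 0.05, a difference of 0.24 ± 0.10 (SE; 95% interval 0.04 to 0.44, adjusted p = 0.134; 0.0142 to 0.359 over the alternatives). Its IS141 libraries at 8252, 8690.1 and 8657 CPM were all above the DMSO libraries at 7076, 6796 and 7839 CPM, as were those of Mt-nd1 and Mt-atp6, 3 of 10 genes where 13.0% of all genes did so, and with library totals 1, Mt-co1, where 10.9% did. After TMM scaling IS141 had the highest glutamate mean for 7 of the genes, AH609 for Mt-nd1 and Mt-cyb, and DMSO for Mt-nd4. With AH609 the values against DMSO lay between -0.12 and 0.18, none was called at an adjusted p under 0.05 or an unadjusted one, the smallest edgeR adjusted p was 0.552, and 2.62% of all genes were called. For 0 of the 10 genes were all AH609 libraries above all DMSO libraries, where 11.2% of all genes were.

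In medium, DMSO cultures had the lowest mean of the 4 treatments for all 10 genes, but no agent differed from DMSO past the threshold for any of them, and none had an unadjusted p under 0.05. The medians were 0.19 for IS141, 0.14 for AH609 and 0.17 for AH236, with smallest edgeR adjusted p-values of 0.321, 0.4 and 0.243, while 7.98%, 3.06% and 10.5% of all genes were called. All 10 genes overlapped between each agent and DMSO, while 10.2%, 8.86% and 11.4% of all genes had every agent library above every DMSO library. DMSO medium replicate 1 was the lowest of its group for 9 of the 10 genes, and without it the medians were 0.12, 0.08 and 0.12, with lowest values of 0.08, -0.12 and -0.11. Agent libraries moved the medians as much or more, to 0.12 for IS141 without IS141 medium replicate 2, to -0.00 for AH609 without AH609 medium replicate 3 and to 0.07 for AH236 without AH236 medium replicate 2. All these comparisons within a medium share the same 3 DMSO libraries.

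Over both media, 3 pairs of agents were compared. Doses are not given, so the pairs are matched by medium and not by dose. AH236 was lower than IS141 by -0.10 to -0.35 with a median of -0.18, with no gene called (smallest edgeR adjusted p = 0.0583), 4 at an unadjusted p under 0.05, and 16.0% of all genes called. The values nearest the threshold were -0.18 ± 0.06 (SE; 95% interval -0.32 to -0.05, adjusted p = 0.0583) for Mt-co2 and -0.35 ± 0.12 (-0.60 to -0.09, adjusted p = 0.0593) for Mt-nd3, with ranges over the alternatives of 0.0177 to 0.168 and 0.0124 to 0.156. DESeq2 called Mt-nd3, Mt-co2 and Mt-co3 lower, and 3 genes were called without IS141 medium replicate 1 and 1 without DMSO medium replicate 1. AH236 against AH609 gave a median of -0.13, or -0.06 without AH609 medium replicate 3 (smallest adjusted p = 0.341, 1 at an unadjusted p under 0.05, 0.685% of all genes called), and AH609 against IS141 a median of -0.06, or -0.15 to -0.02 with 1 library left out (smallest adjusted p = 0.396, 0 at an unadjusted p under 0.05, 2.67% of all genes called), with no gene called by edgeR or DESeq2 in either.

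Counts of the 10 genes can also be set against each other, which does not depend on the scaling between libraries. Lengths of the messages were not used here, so the shares below are shares of counts and say nothing of which gene has more molecules. Mt-co1 took 52.6% ± 0.903 of the counts of the 10 genes in glutamate and 50.6% ± 0.672 in medium (SD over 12 libraries of 4 treatments each). Mt-co2 took 5.71% ± 0.101 in glutamate and 6.65% ± 0.154 in medium. Its 12 glutamate libraries ran from 5.49% to 5.89% and its 12 medium libraries from 6.40% to 6.88%, so that they did not overlap although its level rose.

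At 52.6% of the counts of the 10 genes in glutamate and 50.6% in medium, Mt-co1 was the largest part of what each other gene is set against. Ratios of those genes therefore depend largely on Mt-co1. Relative to the other 9 genes, Mt-co2 was lower in glutamate than in medium by -0.23 on the log2 scale with IS141, -0.23 with AH609, -0.25 with AH236 and -0.24 in DMSO. Mt-nd5 was higher by 0.15, 0.12, 0.08 and 0.19 in the same order, and its ratio to the other 9 was also higher in all 12 glutamate libraries than in all 12 medium libraries. No other of the 10 genes was apart in this way over all 24 libraries. Of all genes tested, 3.38% were higher without overlap relative to the counts of the 10 genes and 45.0% lower. The counts of the 10 genes, the divisor here, took a larger mean share of the library in glutamate in every treatment. How much of the 45.0% this accounts for was not tested. Mt-nd3 had the largest shift, -0.39 with IS141, -0.34 with AH609, -0.39 with AH236 and -0.43 in DMSO, with all 3 glutamate libraries below all 3 medium libraries within every treatment. Its share averaged 0.380% ± 0.0265 in glutamate and 0.497% ± 0.0523 in medium (SD, 12 libraries each). Other genes were apart in part of the treatments. With IS141, AH609 and AH236, but not in DMSO, Mt-co1 lay above without overlap and Mt-cyb and Mt-co3 below. In DMSO cultures Mt-co1 and Mt-co3 overlapped only through DMSO medium replicate 1, at 51.9% and 13% of the counts of the 10 genes. The other DMSO medium libraries had 50.6% and 50.1% for Mt-co1, against 51.6%, 52.3% and 51.3% in glutamate. For Mt-co3 they had 14.2% and 14.4%, against 12.5%, 12.7% and 13.3% in glutamate. Mt-nd2 lay above with AH609 and in DMSO, where the nearest glutamate and medium libraries were both at 2.67% after rounding. With IS141 it overlapped by as little, at 2.69% in both media. Its shifts were all positive, from 0.10 with IS141 to 0.20 in DMSO. The share of all genes apart in this ratio within a treatment was not computed.

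Mt-nd4 had shifts of either sign, from -0.16 to 0.34, and the differences of these shifts between treatments were not tested. It was higher relative to the other 9 by 0.34 in DMSO cultures, where it took 3.22%, 2.84% and 3.31% of their summed counts in glutamate, against 2.55%, 2.21% and 2.73% in medium. It was lower by -0.16 with AH236, where it took 2.26%, 2.23% and 2.50% in glutamate, against 2.56%, 2.77% and 2.47% in medium. The groups were apart in DMSO cultures and overlapped with AH236, and the values were 0.03 with IS141 and -0.14 with AH609. Mt-nd1 and Mt-atp6 kept their ratios within -0.11 to 0.05 in all treatments, with overlapping groups.

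**Figure D5:**
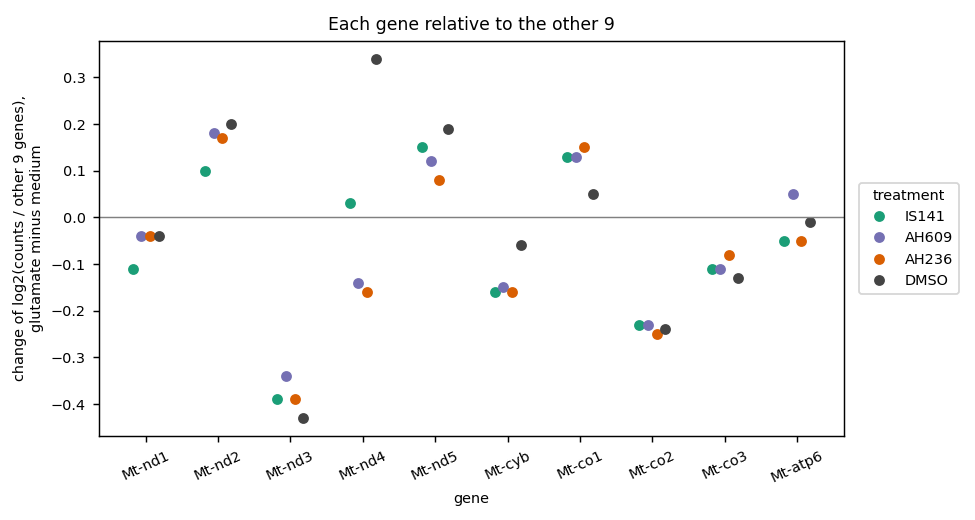
Change of each gene relative to the other 9, as the difference between glutamate and medium of the mean log2 ratio of its counts to the counts of the other 9 (vertical axis), by gene and treatment, 3 libraries a group. Mt-nd3 and Mt-co2 lie below 0 in all 4 treatments, at -0.34 to -0.43 and -0.23 to -0.25, Mt-nd2 and Mt-nd5 lie above, and Mt-nd4 runs from -0.16 with AH236 to 0.34 in DMSO.

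The 10 genes varied together. Over the 24 libraries the Pearson correlation of log2 CPM between pairs of them had a median of 0.97 and ran from 0.75 to 0.996, with the 9 lowest values all in pairs with Mt-nd3. These libraries share the contrast between media, and after removal of the group means the correlations still had a median of 0.90 and ran from 0.71 to 0.986. Single libraries moved the whole set. AH609 medium replicate 3 had the highest level of its group for all 10 genes, as had IS141 medium replicate 2, AH236 medium replicate 2, AH236 glutamate replicate 3, DMSO glutamate replicate 3 and DMSO medium replicate 3. IS141 medium replicate 1, AH609 glutamate replicate 1, AH236 medium replicate 3 and DMSO glutamate replicate 2 were the lowest of their groups for all 10. The coefficient of variation among replicates had a median of 7.40% in glutamate and 13.4% in medium over genes and treatments.

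Outside the set, the genes with the most alike pattern were sought among 12159 other tested genes whose log2 CPM averaged 1 or more, by the correlation of log2 CPM over the 24 libraries with the mean of the 10. Only the 10 genes were left out of this search, so other mitochondrially encoded genes may be among the candidates. The closest were ENSRNOG00000058589, with r = 0.988, and ENSRNOG00000031053, with r = 0.983, and the fifth had r = 0.952. Of the 12159 genes, 145 had r above 0.9. These correlations are descriptive and rest in part on the shared contrast between media. After removal of the group means they were 0.96 and 0.97 for the first pair, and 0.92, 0.75 and 0.80 for ranks 3 to 5. Over all treatments ENSRNOG00000058589 was higher in glutamate by 0.77 on the log2 scale (edgeR adjusted p = 4.85e-09) and ENSRNOG00000031053 by 0.63 (adjusted p = 3.97e-06). The gene at rank 4 averaged 16931 CPM. The genes at ranks 3 to 5 rose by 1.33, 0.93 and 1.51, more than any of the 10 genes over all treatments. The files pair none of these IDs with a gene name.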

How the data were processed

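RNA of 24 libraries of rat cortical cells was measured by sequencing. The authors deposited raw counts, whole numbers for each Ensembl gene ID, in a single table. Kits named in the labels' protocols were RNeasy for RNA and the directional NEBNext Ultra II kit for libraries. Per the submitters' processing notes, bcl2fastq, cutadapt 2.3, FastQC 0.11.8, STAR 2.7.8a, RSEM 1.3.3 and the build Rnor_6.0 were used. What each did, which annotation was used and how strand was set is not stated there. Because RSEM gives estimated counts, the deposited counts may have been rounded. Nuclear copies of mitochondrial sequence and overlapping or antisense mitochondrial genes can share reads with the 10 genes, whose counts are uncertain to that extent.

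Groups came from sample titles. A pair of AH236 glutamate titles carry the number 2, and the later is called replicate 3. No replicate pair had identical counts or agreed within sampling noise.

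The test was edgeR 4.0.16 (R 4.3.3), quasi-likelihood F, with filterByExpr by the 8 groups (15908 genes kept), TMM, robust dispersions and 1 mean per group in a fit of all 24 libraries. Benjamini-Hochberg adjustment ran across those genes, and a gene was called at adjusted p under 0.05. SEs were derived from the F statistic, and 95% intervals from them. The lowest count of a member in a library was 951, where counting error is 3.24%. Alternatives were DESeq2 1.42.0, RLE size factors, library totals, scaling without the 10 genes, no filter, the compared groups alone, a replicate block and each library left out.

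The rule for the members uses gene IDs alone, but this set of genes, the lists and the tests were chosen with earlier results of these data known. Names of the 10 genes come with the rule that chose them. The rule for named genes was to give all 10, and the 5 genes of most alike pattern, of which 2 IDs are printed because 0 IDs could be matched to a name in the reference tables. For that reason 17 gene lists with 200 genes, among them nuclear respiratory subunits and cell type markers, could not be applied and gave no result. No sequence or length of the 10 genes was used here.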

Additional observations from a re-analysis of the deposited data

How the results depend on the processing

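Over all 4 treatments, 10 genes were called higher in glutamate under each alternative but library totals (9). With 1 library left out, the genes called higher in glutamate numbered 10 to 10 over all treatments, 9 to 10 for IS141, 8 to 10 for AH609, 4 to 8 for AH236 and 9 to 10 for DMSO. With AH236, 2 were called higher with library totals, and Mt-nd3 turned to -0.15 with library totals and ran from -0.04 (without AH236 medium replicate 3) to 0.20 with 1 library left out, not called in any. In glutamate, IS141 against DMSO gave 2 genes higher with the compared groups alone, and AH236 against DMSO gave 3 lower with the compared groups alone, 1 with library totals and 0 to 1 with 1 library left out. The difference of the AH236 and DMSO glutamate effects gave 1 lower with DESeq2 and 0 to 1 with 1 library left out. AH236 against IS141 gave 1 lower with RLE size factors, 3 with library totals, 2 with the replicate block, 1 with the compared groups alone, 3 with DESeq2 and 0 to 3 with 1 library left out. Of all genes tested, RLE size factors called 1083 lower there and library totals 2024, against 1030 in the main fit. Numbers of all genes called under the other alternatives are not given here. With library totals, an alternative added after the data were seen, the genes whose libraries did not overlap became 2 for AH236 in glutamate above medium, 2 over all libraries, 1 for IS141 above DMSO in glutamate and 6 for AH236 below DMSO in glutamate. The other counts of called genes were unchanged or stayed within 1.5 times. Group means of the shares of counts moved by less than the SD of their group. With 3 libraries a group, leaving 1 out cannot move a mean by more than that, so this check could not fail. The cause of these changes was not tested. Scaling that left out the 10 genes changed no count of called genes.

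The title numbers are not said to mark shared cultures. Same-numbered libraries of compared groups had correlated deviations over 0.1 in 2 of 30 pairs (-0.20 to 0.17), and 6 of 24 libraries were closest to their own number. With the replicate block, 10 genes were higher in glutamate over all treatments, 10 with IS141, 10 with AH609, 8 with AH236 and 9 in DMSO. At the lowest count of the 10 genes, 951 for Mt-nd3 in DMSO medium replicate 1, counting error is 3.24%. The coefficient of variation of Mt-nd3 among the replicates of that group was 22.5%. The smallest in any group, 2.80% for Mt-nd3 with AH236 in glutamate, was near that counting error. How far depth limits Mt-nd3 was not tested.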
